A study of Mus musculus with 31 samples.

Results

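The genes described here are the neuronal intermediate filament genes of the mouse: the 3 neurofilament genes Nefl, Nefm and Nefh, peripherin (Prph) and alpha-internexin (Ina). They were taken by name, not by any measured value: a row of both raw count tables was a member if its Ensembl identifier carries one of these 5 symbols in the GENCODE M21 annotation. All 5 were found among 55536 gene identifiers, and all 5 passed the filter on low counts in every comparison. The data are 31 libraries of RNA that was pulled down with a GFP-tagged ribosomal protein, a method called TRAP (translating ribosome affinity purification). Cre libraries came from Nav1.8-Cre;L10a-eGFP-fl/fl mice, in which Cre is driven by Nav1.8, the sodium channel gene Scn10a, and control libraries from L10a-eGFP-fl/fl mice without Cre. Both genotypes therefore carry the L10a-eGFP-fl/fl allele, and only Cre animals are designed to express the tagged protein, in Nav1.8-positive neurons. Batch 1 held central axons (lumbar dorsal roots with spinal cord) and somas (lumbar dorsal root ganglia, DRG), and batch 2 held peripheral axons (sciatic nerve) and other somas. Each of the 8 groups had 4 libraries, except the peripheral axon control with 3. Ages of the mice are not given in the sources used here, and the labels call replicates biological without saying which libraries share an animal.

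Intermediate filaments fill the axon and set its calibre. Nefl, Nefm and Nefh encode the light, medium and heavy neurofilament subunits, which assemble together, and large myelinated sensory neurons are known for holding much of them. Peripherin is a related subunit that is typical of peripheral neurons, the small unmyelinated ones that include nociceptors in particular. Alpha-internexin is a further partner subunit that is best known from the central nervous system and from developing neurons. All 5 proteins share a coiled-coil rod through which they assemble, and differ in their tails, which are longest in the heavy and medium subunits.

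The genes lie at 4 places in the assembly GRCm38. Nefl (ENSMUSG00000022055) and Nefm (ENSMUSG00000022054) are neighbours on chromosome 14, at 68083863 to 68089095 on the plus strand and 68082590 to 68124846 on the minus strand. Nefh (ENSMUSG00000020396) lies on chromosome 11, 4938754 to 4948064, minus strand. Prph (ENSMUSG00000023484) lies on chromosome 15, 99055174 to 99058978, plus strand. Ina (ENSMUSG00000034336) lies on chromosome 19, 47014698 to 47025327, plus strand. The annotated span of Nefm contains the whole of Nefl, because the last exon of 1 Nefm transcript lies opposite exon 1 of Nefl. They share 1108 exonic bases on opposite strands, from 68083863 to 68084970 of chromosome 14, which are 32.8% of the exonic bases of Nefl and 19.2% of those of Nefm. How the counting treated strand is not given in the sources used here, so reads from that stretch cannot be told apart between the 2 genes, and results for Nefl and Nefm are given with this limit. In Ina, 14.1% of the exonic bases lie opposite Nt5c2, while Nefh and Prph share no exonic base with another gene.

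The members are related in sequence, so reads of one could be taken for those of another where a run of bases is shared. The longest run that any 2 of the 5 genes share on the same strand is 35 bases, between Nefm and Prph, and the other 9 pairs share at most 23.

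The stretch in which Nefl and Nefm oppose each other is of another kind, since there the DNA itself is shared, and it is shown because the counts of both genes depend on it. It holds the start of the Nefl coding sequence, chr14:68083963-68084022 in exon 1, printed on the plus strand with the start codon in capitals.
Nefl coding start: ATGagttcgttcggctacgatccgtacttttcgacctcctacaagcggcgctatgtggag
A read from these bases belongs to Nefl if it comes from the plus strand and to Nefm if it comes from the minus strand.

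Total counts ran from 3.60 to 19.6 M counts per library, and the lowest count of any of the 5 genes in any library was 56. Scn10a, which checks the labels, was measured in CPM (the count scaled to the total of its library). Its median was 114 CPM in Cre libraries of the central axon and 1.05 CPM in controls. Its medians were 136 and 38.1 CPM in peripheral axons, 411 and 236 CPM in batch 1 somas, and 354 and 299 CPM in batch 2 somas. Outside the central axons some controls overlapped the Cre libraries. In the batch 1 somas control a had 625 CPM, above every Cre soma of that batch, and control 1 had 383 CPM, above Cre 1 and Cre 3. Control 7 of the batch 2 somas had 598 CPM, above every Cre soma there. Peripheral axon control 1 had 127 CPM, above peripheral axon Cre 1 and Cre 3. Control 3 of the batch 1 somas stood apart, with a scaling factor of 0.0547 (trimmed mean of M-values, TMM) where the other 7 soma libraries of that comparison had 1.30 to 1.78. In the batch 2 somas, control 5 had 18.1 M counts and the other 3 controls 3.60 to 4.52 M, and its values lay near those of the Cre somas. Results that rest on either library are given with and without it. Spinal cord and nerve markers followed the tissue taken: the 8 spinal neuron markers (inhibitory and dorsal horn genes) summed to 154 to 438 CPM in central axon Cre libraries and 1.36 to 6.99 CPM in their somas, where Gad2, Slc32a1, Slc6a5 and Tfap2b were at 0. Schwann cell markers summed to 7005 to 17945 CPM in peripheral axon Cre libraries and 323 to 591 CPM in batch 2 Cre somas. The general neuronal markers (10 genes such as Tubb3, Uchl1 and Gap43) summed to 11593 to 19064 CPM in central and 3455 to 13262 CPM in peripheral axon Cre libraries, against 19235 to 26332 and 20927 to 23952 CPM in the matching Cre somas. In bulk libraries such as these, fewer cells of a type and less RNA per cell cannot be told apart.

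Together the 5 genes made up 0.563 to 0.721% of all counts in central axon Cre libraries, 0.843 to 0.968% in batch 1 Cre somas, 0.137 to 0.483% in peripheral axon Cre libraries and 0.707 to 0.847% in batch 2 Cre somas. Per kilobase of exon, the scale on which genes can be compared with each other, Prph was the highest of the 5 in every library of 6 groups. The exceptions were the central axon controls, where Nefl was the highest in 4 of 4 libraries, and central axon Cre 4, where Nefl had 619.5 and Prph 426 CPM per kilobase. Nefh was the lowest in all 8 central axon libraries and in all 4 batch 2 Cre somas, and Ina was the lowest in all 4 peripheral axon Cre libraries. The genes therefore did not keep one order across the compartments.

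**Figure D1:**
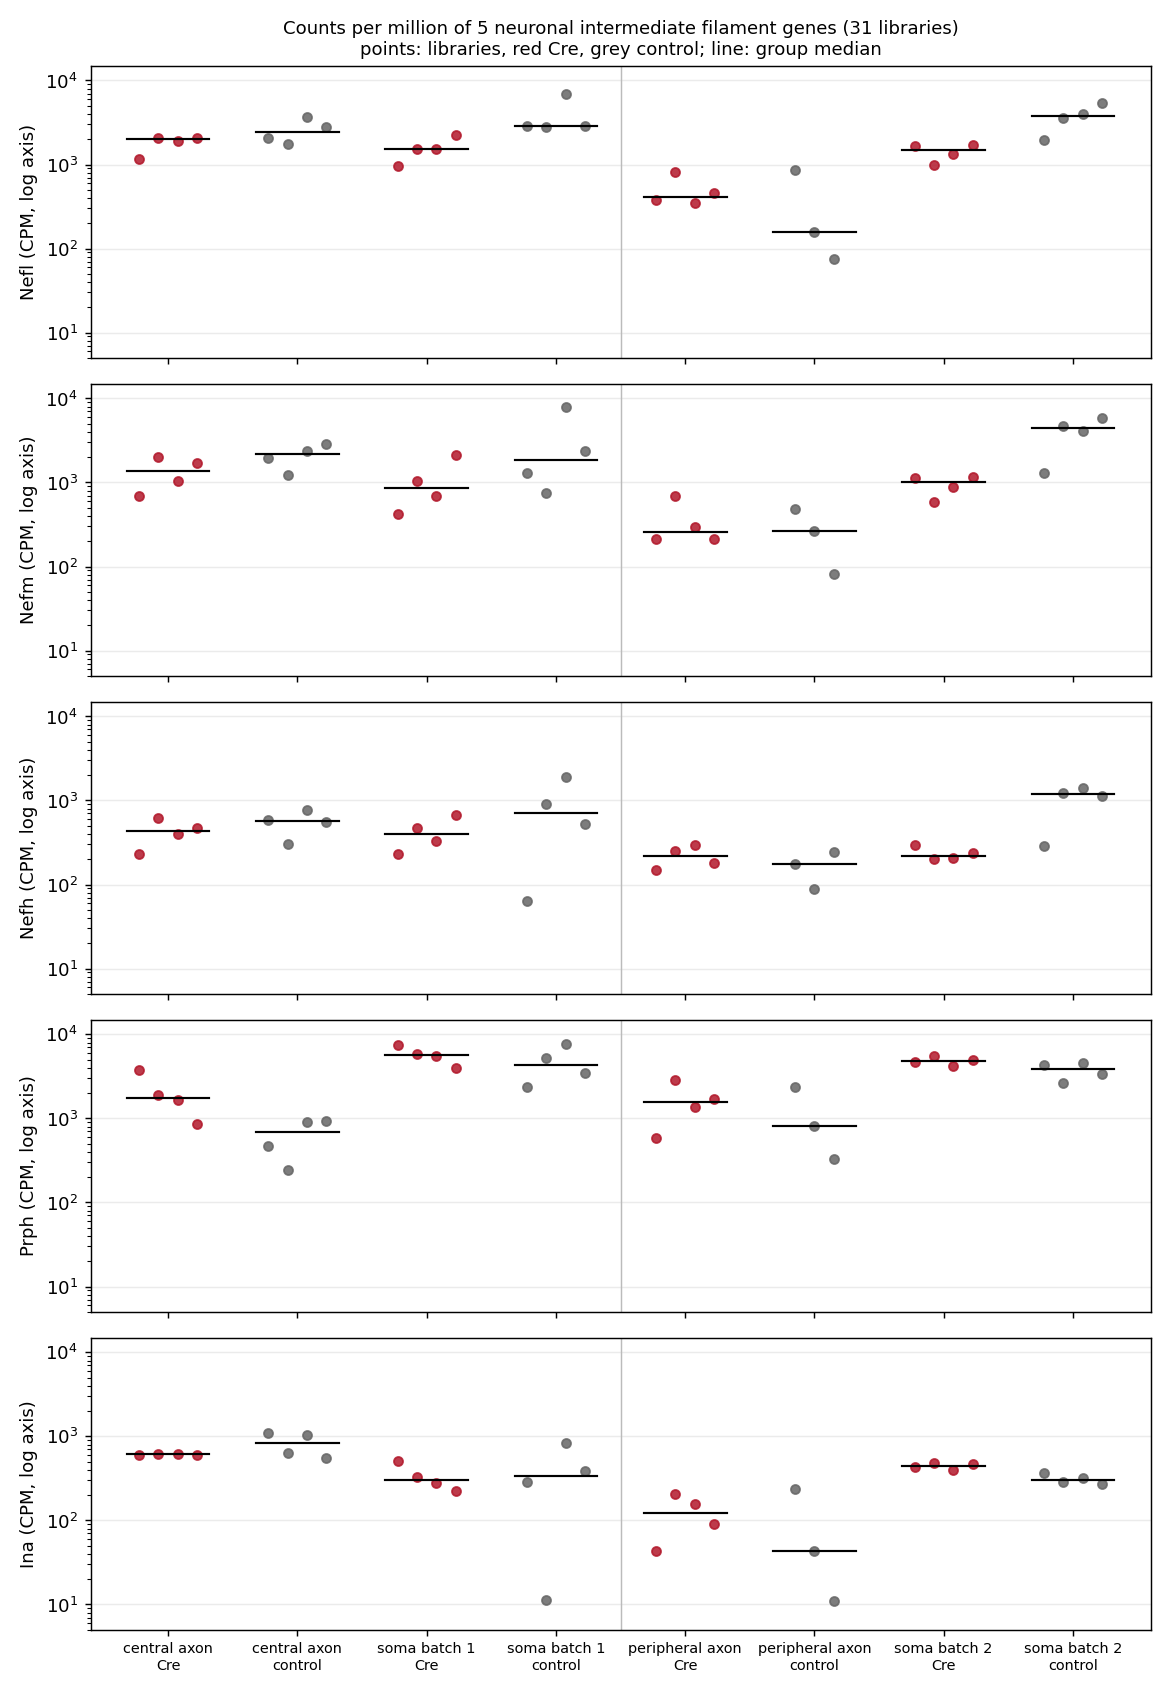
CPM (logarithmic y axis) of Nefl, Nefm, Nefh, Prph and Ina in 31 libraries, by group on the x axis, with Cre libraries in red, controls in grey and the group median as a line. Nefl, Nefm and Ina were at 42.8 to 809 CPM in the peripheral axon Cre libraries, below their levels in most other Cre libraries, whereas Nefh at 150.3 to 296 CPM overlapped its batch 2 Cre somas.

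Nefl, the light subunit that the other neurofilament proteins assemble with, had its highest group means in controls. They were 3853 ± 2018 CPM (mean ± SD, n = 4) in batch 1 soma controls and 3744 ± 1409 CPM (n = 4) in batch 2 soma controls. Central axon controls followed with 2569 ± 854 CPM, central axon Cre libraries with 1817 ± 431 CPM, and Cre somas with 1574 ± 520.3 (batch 1) and 1421 ± 321 CPM (batch 2), n = 4 each. The lowest means were those of sciatic nerve, 498 ± 212 CPM in Cre (n = 4) and 368 ± 436 CPM in control libraries (n = 3). In that order only 1 pair of neighbouring groups did not overlap, the batch 2 Cre somas (998 to 1684 CPM) and the peripheral axon Cre libraries (353 to 809 CPM). CPM is a share of a library's counts, so a higher CPM in controls need not mean more RNA of the gene. Genes with a count numbered 9893 to 13753 in batch 1 soma controls and 15682 to 20477 in their Cre somas.

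Nefm, the medium subunit, kept nearly the same order, and all its neighbouring groups overlapped. Its means ran from 3968 ± 1912 CPM in batch 2 soma controls (n = 4) to 274 ± 198 CPM in peripheral axon controls (n = 3). Nefh, the heavy subunit with the long phosphorylated tail, had its highest mean in the same batch 2 soma controls, 1018 ± 502 CPM (n = 4). Its lowest means were 235 ± 45.5 CPM in batch 2 Cre somas, 219.8 ± 67.0 CPM in peripheral axon Cre libraries (n = 4 each) and 170.3 ± 79.5 CPM in peripheral axon controls (n = 3). Every pair of neighbouring groups overlapped for Nefh as well.

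Prph had another order, with the 4 soma groups at the top and the 4 axon groups below. Its means were 5738 ± 1451 and 4872 ± 549 CPM in the Cre somas of batches 1 and 2, and 4709 ± 2326 and 3755 ± 892 CPM in their controls (n = 4 each). In axons they were 2042 ± 1233 CPM (central Cre, n = 4), 1642 ± 950.4 CPM (peripheral Cre, n = 4), 1168 ± 1055 CPM (peripheral control, n = 3) and 636 ± 338 CPM (central control, n = 4). All neighbouring groups of this order overlapped.

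Ina was highest in the libraries that hold spinal cord. Central axon controls had 831 ± 283 CPM and central axon Cre libraries 611 ± 7.47 CPM (n = 4 each), the latter within 604 to 621 CPM and above all batch 2 Cre somas (393 to 487 CPM). The batch 1 soma groups and the batch 2 soma controls had means from 312 ± 41.6 to 381 ± 344 CPM. Sciatic nerve was lowest, with 124 ± 71.5 CPM in Cre (n = 4) and 96.0 ± 121 CPM in control libraries (n = 3). The lowest single value was 10.997 CPM in peripheral axon control 4, with a Wilson 95% interval of 8.47 to 14.3 CPM that covers counting error only.

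Whether the ribosome-bound RNA of these genes differs between central axons and their somas was asked among the Cre libraries of batch 1. Prph fell, and none of the other 4 genes passed the test. Prph was at 3767, 1883, 1665 and 853 CPM in central axon Cre libraries 1 to 4 and at 7561, 5798, 5577 and 4017 CPM in somas 1 to 4. Soma 4 lay just above axon 1, so the groups did not overlap (8.71% of genes were as separate in that direction after scaling), although axon 1 was more than 4 times axon 4. With edgeR's quasi-likelihood test the log2 fold change of Prph was -1.88 (SE 0.52, edgeR adjusted p 0.0308). This is 1 of 5 members called, where 13.7% of the 14480 genes tested were called in either direction. Refitting with 1 library left out at a time lost the call in 6 of 8 cases (edgeR adjusted p 0.0586 to 0.101). These were the fits without central axon Cre 2, 3 or 4 or soma 1, 2 or 3. A fit of all 4 groups of the batch also lost it (edgeR adjusted p 0.326). In a fit with the replicate number as an added factor (a block), Prph kept its call at a smaller edgeR adjusted p. The labels do not say that equal numbers share an animal. Neuronal markers were lower beside it: 3 of 10 general neuronal markers (median log2 fold change -0.95) and 4 of 9 nociceptor markers (-1.41) fell, and their part in the value of Prph was not tested.

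The neurofilament genes stayed close to their soma levels in these libraries. Nefl was at 1179, 2067, 1928 and 2094 CPM in central axon Cre libraries 1 to 4 and at 964, 1548, 1548 and 2236 CPM in the somas. Nefm ranged from 683 to 2016 CPM in axons and 422 to 2132 CPM in somas, and Nefh from 228 to 626 and 228 to 675 CPM. In all 3 genes library 1 was the lowest of both compartments. Their log2 fold changes were -0.24 (SE 0.35, Nefl), -0.09 (SE 0.47, Nefm) and -0.42 (SE 0.37, Nefh), against a median of 0.05 over all genes. Scaled by library size alone, the median over all genes rose to 0.50, and the values of Nefl, Nefm and Nefh turned to 0.21, 0.34 and 0.02, so no direction can be given for them. Ina was at 604 to 621 CPM in central axons and 221 to 505 CPM in somas, which do not overlap in CPM (nor did 21% of genes in that direction), but it overlapped after TMM scaling. Its value was 0.42 (SE 0.33, edgeR adjusted p 0.428). All 8 spinal neuron markers rose in the same comparison (median log2 fold change 8.32), as did 5 of 6 astrocyte markers (median 5.72). Of 4 motor neuron markers tested, 2 rose (median 4.77). Both tissues' neurons can express Nefl, Nefm, Nefh and Ina. The part of spinal cord RNA in the central axon levels of all 5 genes, Prph included, was not tested by this comparison.

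Between peripheral axons and somas, both from batch 2, 4 of the 5 genes fell, and Nefh was the exception. Nefl was at 375, 809, 353 and 455 CPM in peripheral axon Cre libraries 1 to 4 and at 1654, 998, 1346 and 1684 CPM in somas 5 to 8, with no overlap. Its log2 fold change was -1.69 (SE 0.36, edgeR adjusted p 0.00493). Nefm was at 213, 689, 296 and 211 CPM in axons and 1138, 584, 883 and 1157 CPM in somas, where axon 2 lay above soma 6. Its log2 fold change was -1.58 (SE 0.45, edgeR adjusted p 0.0199), and summing Nefl and Nefm gave -1.65 (SE 0.41, edgeR adjusted p 0.0105).

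Prph was at 589, 2878, 1381 and 1719 CPM in these axons and at 4753, 5572, 4241 and 4922 CPM in the somas, with no overlap. Its log2 fold change of -1.73 (SE 0.48, edgeR adjusted p 0.0180) was close to that in central axons. Ina was at 42.8, 205, 157 and 90.2 CPM in axons and at 427, 487, 393 and 471 CPM in somas, again with no overlap. It differed by -1.99 on the log2 scale (SE 0.45, edgeR adjusted p 0.00654). Nefh, in contrast, was at 150.3, 253, 296 and 179 CPM in axons and at 299, 199, 206 and 235 CPM in somas. These ranges overlapped, and the log2 fold change was -0.25 (SE 0.31, edgeR adjusted p 0.558).

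The 4 members called compare with 31.2% of the 15467 genes tested, and the 3 that did not overlap downwards after scaling (Nefl, Prph and Ina) with 20.2%. The median log2 fold change of the 5 genes was -1.69, beside -0.03 over all genes. In a fit of all 4 groups of the batch, Nefl (edgeR adjusted p 0.0551) and Nefm (0.0654) lost their calls, and Nefm also lost it without soma 8 (0.0554). General neuronal markers fell in 7 of 10 cases here (median log2 fold change -1.57) and 7 of 9 nociceptor markers fell (-1.67), while all 8 Schwann cell markers rose (5.96).

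**Figure D2:**
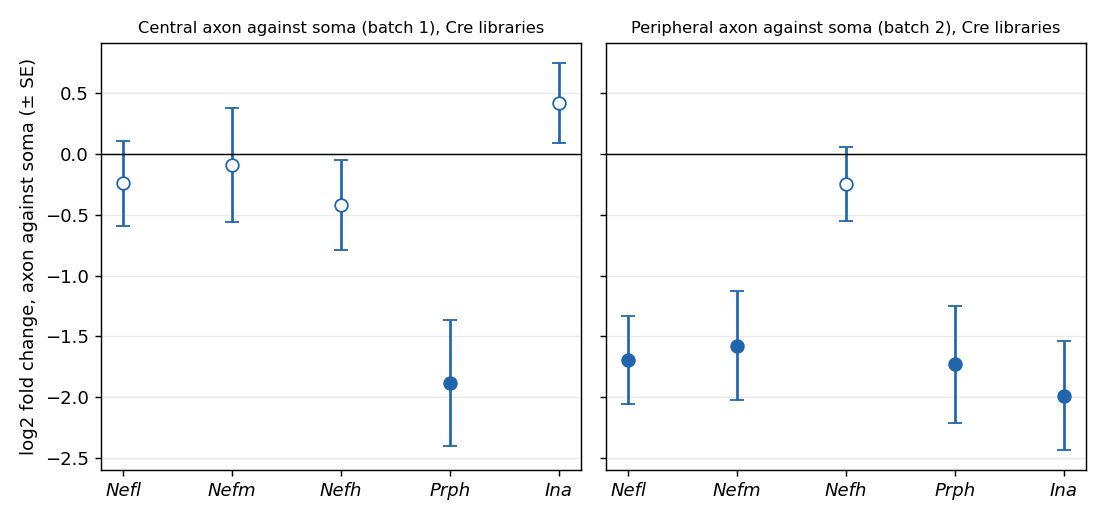
Log2 fold change of axon against soma (y axis) with its SE for each gene (x axis), in Cre libraries of batch 1 (central, left) and batch 2 (peripheral, right), 4 libraries in each group, with filled points for edgeR adjusted p under 0.05. Prph lay at -1.88 and -1.73, Nefl, Nefm and Ina passed the test on the peripheral side, and Nefh lay at -0.42 and -0.25 with open points on both.

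Because the neuronal share of the nerve libraries differed from that of the somas, the members were also set against each other and against neuronal markers within each library. The ratio of Nefh to Nefl, each per kilobase, was 0.340, 0.265, 0.712 and 0.333 in peripheral axon Cre libraries 1 to 4 and 0.153, 0.169, 0.130 and 0.118 in somas 5 to 8. Every axon library lay above every soma library. The mean log2 ratio was higher by 1.44 (exact two-sided permutation test, n = 4 and 4, p = 0.0286, the smallest this design allows), with a Benjamini-Hochberg adjusted p of 0.229 over the 8 ratios tested in both axons. The direction held in all 8 versions with 1 library left out (1.14 to 1.61). In central axons the same ratio was 0.164 to 0.257 and overlapped the somas at 0.179 to 0.255 (difference -0.19, exact p = 0.314).

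In the other ratios to Nefl, axon and soma libraries overlapped. Nefm to Nefl in peripheral axons, 0.271 to 0.498, covered the somas' 0.342 to 0.402 (difference 0.01 on the log2 scale, exact p = 0.943). Prph to Nefl in peripheral axons was 2.66, 6.02, 6.62 and 6.38 and in somas 4.86, 9.44, 5.33 and 4.94 (difference -0.21, exact p = 0.657). In central axons Prph to Nefl was 5.40, 1.54, 1.46 and 0.688 in libraries 1 to 4, and 13.3, 6.33, 6.09 and 3.04 in the somas of the same numbers (difference -1.88, exact p = 0.0571, adjusted 0.229). Axon 1 overlapped the somas there. The order of libraries 1 to 4 was the same in both compartments, but the labels do not say that equal numbers share an animal.

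**Figure D3:**
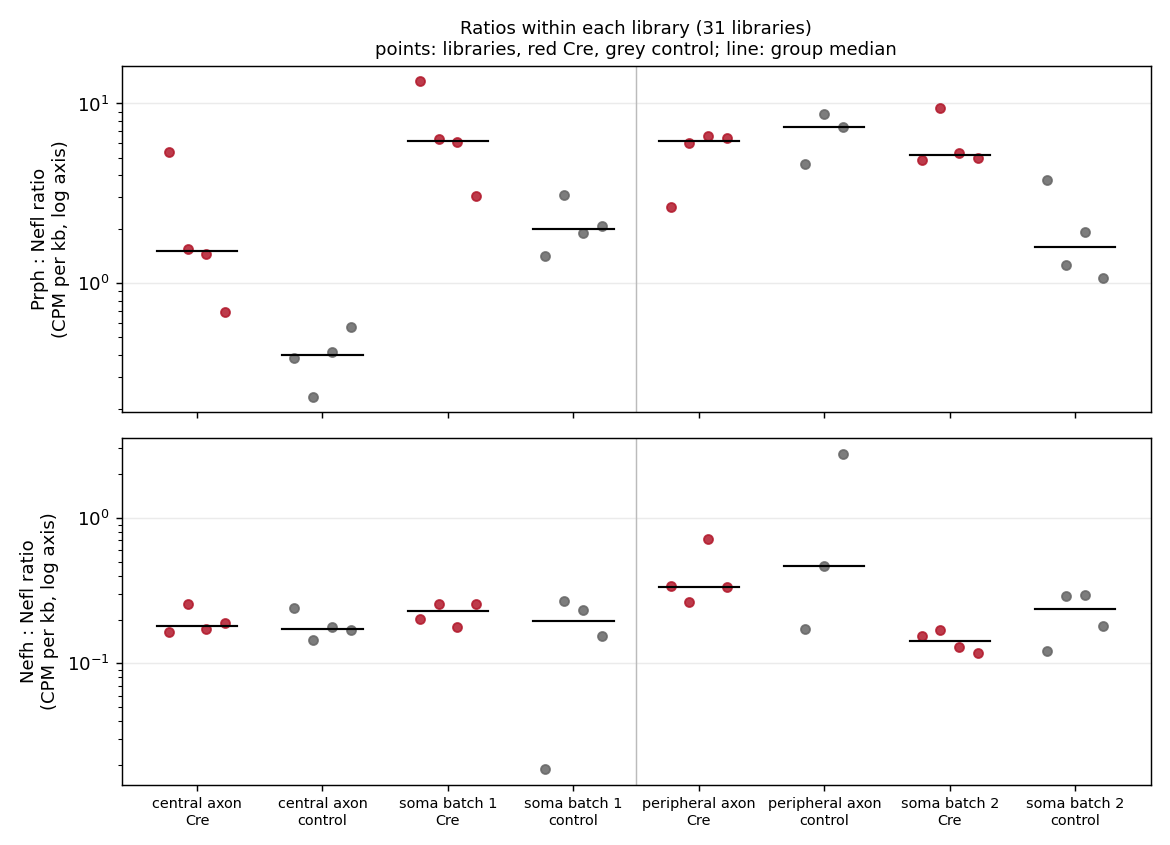
Ratio of Prph to Nefl (top) and of Nefh to Nefl (bottom), both in CPM per kilobase on a logarithmic y axis, in 31 libraries by group, with Cre libraries in red, controls in grey and group medians as lines. The 4 peripheral axon Cre libraries had Nefh to Nefl ratios of 0.265 to 0.712, above the 4 batch 2 Cre somas at 0.118 to 0.169. The peripheral axon controls had 0.173 to 2.75. Central axon controls had the lowest Prph to Nefl ratios, 0.234 to 0.567.

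Relative to the general neuronal markers, a comparison added after the data were seen, Nefl, Nefm and Prph of the peripheral axons differed little from the somas, with log2 differences of 0.08, 0.09 and -0.13 (exact p = 0.943, 0.857 and 0.429). Ina was lower by 0.42 on that scale (difference -0.42, exact p = 0.0571). Nefh was higher by 1.52 with no overlap (exact p = 0.0286, adjusted 0.143 over 10 such tests). In central axons the same calculation gave 1.47 for Ina, also with no overlap (exact p = 0.0286, adjusted 0.143), -1.13 for Prph (exact p = 0.0571), and 0.56 to 1.00 for the 3 neurofilament genes, whose groups overlapped. No ratio of either kind passed an adjusted p of 0.05. A single ratio without overlap could not pass, since the smallest exact p of 0.0286 was adjusted over 8 or 10 tests.

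The nerve controls bear on these values, since they hold no tagged ribosomes by design. Nefl was at 869, 159 and 75.6 CPM in peripheral axon controls 1, 2 and 4, Prph at 2353, 821 and 329 CPM, and the general neuronal markers summed to 10249.6, 3940.0 and 784 CPM. All 3 measures had the same order across these libraries, and control 1 was near the highest Cre library, which had 809 CPM of Nefl, 2878 CPM of Prph and a marker sum of 13262 CPM. Nefh did not follow that order, with 177, 87.6 and 246 CPM. Its highest control value stood in control 4, the library with the lowest neuronal sum, where the Nefh to Nefl ratio was 2.75 and Schwann cell markers summed to 10561 CPM. The source of Nefh reads in nerve controls was not tested.

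**Figure D4:**
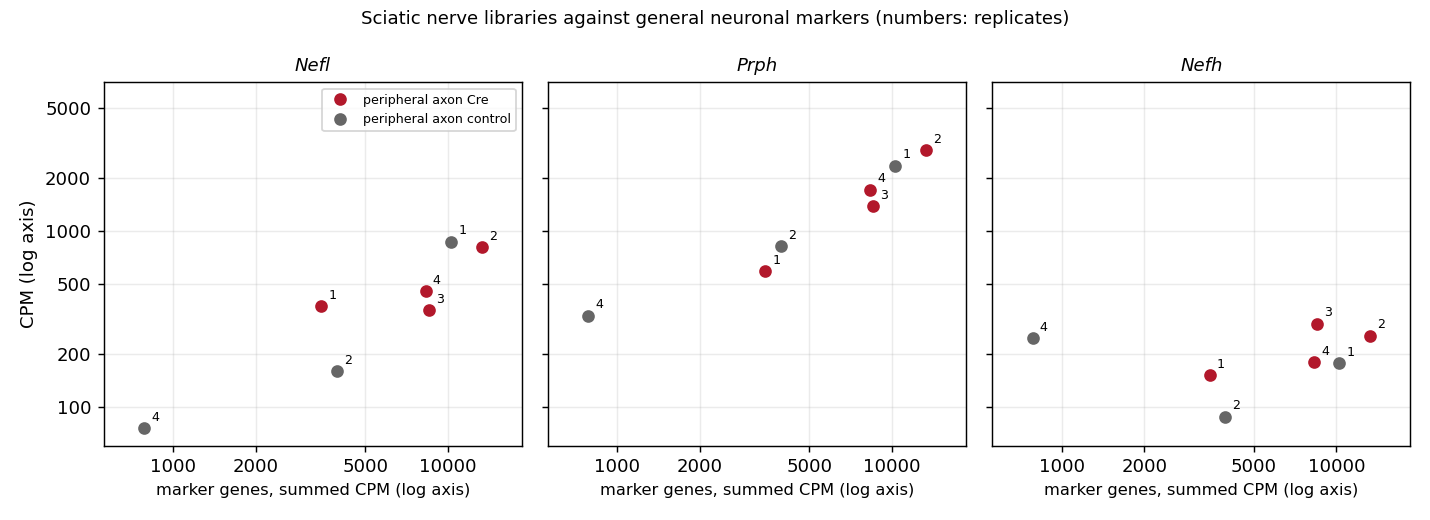
CPM of Nefl, Prph and Nefh (y axis) against the summed CPM of 10 general neuronal markers (x axis), both logarithmic, in the 4 Cre (red) and 3 control (grey) sciatic nerve libraries, numbered by replicate. Prph spanned 329 to 2878 CPM from the library with the lowest marker sum to the one with the highest, while Nefh stayed between 87.6 and 296 CPM and was at 246 CPM in control 4, where the sum was lowest.

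The axon types came from different batches, so central and peripheral axons were compared as differences from the somas of their own batch. Ina and Nefl differed between them. Ina was higher in central relative to peripheral axons by 2.57 on the log2 scale (SE 0.57, edgeR adjusted p 0.00651), and remained called in each of the 16 fits that left out 1 library (edgeR adjusted p 0.00239 to 0.0183). Nefl was higher by 1.63 (SE 0.48, edgeR adjusted p 0.0308), but its call was lost in 11 of those 16 fits (all but those without central axon Cre 1, soma 4 or 6, or peripheral axon Cre 1 or 2) and with Nefl and Nefm summed (1.64, edgeR adjusted p 0.0585). Nefm had a similar difference that missed the threshold, 1.65 (SE 0.67, edgeR adjusted p 0.107). Nefh and Prph differed by -0.00 (SE 0.49) and 0.01 (SE 0.69). The 2 genes called compare with 13.1% of the 16725 genes tested, and the median over all genes was 0.26. Markers of cells found in spinal cord did not all move alike. Of astrocyte markers 4 of 6 were called higher (median 5.47), and of spinal neuron markers 2 of 8 (median 6.98). None of 4 oligodendrocyte markers was called (median -2.41), and 1 of 6 microglia and macrophage markers was called lower (median -0.82). The part of spinal cord RNA in the differences of Ina and Nefl cannot be told apart from that of the axons.

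Cre libraries were compared with controls to ask which RNA the tagged ribosomes add to what the pulldown recovers without them. In central axons, none of the 5 genes passed the test, where 0.0141% of 14189 genes did, and neither DESeq2 nor limma voom called a member. Prph was at 468, 241, 898 and 935 CPM in controls 1 to 4, each below 3 of the 4 Cre libraries given above. Its log2 fold change was 1.77 (SE 0.56, unadjusted p 0.00872, edgeR adjusted p 0.511). Nefl was at 2069, 1747, 3671 and 2788 CPM in these controls, overlapping the Cre libraries, and Nefl, Nefm, Nefh and Ina had log2 fold changes of -0.48, -0.64, -0.36 and -0.40 (SE 0.30 to 0.37, edgeR adjusted p 1.00 each).

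Within each central axon library the balance of Prph and Nefl separated the genotypes. The Prph to Nefl ratio was 0.382, 0.234, 0.414 and 0.567 in the controls, and the lowest Cre library had 0.688. The mean log2 ratio was higher in Cre libraries by 2.16 (exact two-sided permutation test, p = 0.0286, the smallest possible, adjusted 0.152 over 16 ratios, a test added after the data were seen). Leaving out 1 library at a time gave 1.60 to 2.59. Nociceptor markers summed to 886 to 5155 CPM in Cre libraries and 98.7 to 424 CPM in controls, where Scn11a and Trpv1 were at 0, but none of the 9 was called by edgeR (median log2 fold change 5.13). The ratios of Nefm, Nefh and Ina to Nefl overlapped between the genotypes (differences -0.22, 0.10 and 0.10, exact p = 0.429, 0.600 and 0.857).

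In peripheral axons, none of the 5 genes passed the test and 0% of 13970 genes did. At an unadjusted p under 0.05, 514 genes passed, none of them a member, and DESeq2 called 21 genes higher and 6 lower, again no member. The log2 fold changes lay between 0.45 (Nefm, SE 0.65) and 0.59 (Prph, SE 0.73), with every Cre range overlapping its controls. Control 1 alone had more Nefl and Ina than any Cre library. Leaving out 1 library at a time gave 0.05 (without control 4) to 2.10 (without control 1) for Nefl, where 0.54 was the value with all 7, and the edgeR adjusted p was at least 0.533 in each.

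In the batch 2 somas the neurofilament genes were lower and Prph and Ina higher on average in Cre libraries than in controls, but none of the 5 passed the test over all 15280 genes, of which 0% were called (2503 passed an unadjusted p under 0.05). Nefh was at 299, 199, 206 and 235 CPM in Cre somas 5 to 8 and at 283, 1239, 1409 and 1142 CPM in controls 5 to 8. Nefm, at 584 to 1157 CPM in Cre somas as given above, was at 1305, 4729, 4060.4 and 5779 CPM in controls. For both genes control 5 lay at or near the Cre somas, and the other 3 controls lay far above.

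The log2 fold changes were -1.84 for Nefh (SE 0.41, edgeR adjusted p 0.0705), -1.81 for Nefm (SE 0.45, edgeR adjusted p 0.0829) and -1.13 for Nefl (SE 0.36, edgeR adjusted p 0.155). Those of Ina and Prph were 0.78 (SE 0.24, edgeR adjusted p 0.144) and 0.65 (SE 0.33, edgeR adjusted p 0.360). After scaling, the Cre somas of Nefl lay below every control, which 5.14% of genes did, and those of Prph and Ina above every control, which 8.18% did. Without control 5, edgeR called 11.7% of all genes and 4 of the 5 members: Nefh at -2.13 (edgeR adjusted p 0.00389), Nefm at -2.08 (0.0114), Nefl at -1.32 (0.0285) and Ina at 0.91 (0.0279). DESeq2, with all 8 libraries, called the same 4 and 7.59% of all genes. Control 5 was set apart partly because its values lay near the Cre somas, so the calls without it are no independent support.

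These differences stood beside differences in the markers of other cells. The 10 markers of large-diameter neurons (genes of myelinated mechanosensory and proprioceptive neurons) summed to 97.4 to 134.7 CPM in the Cre somas, to 190.3 CPM in control 5 and to 781, 775 and 1390 CPM in controls 6 to 8. Nefl and Nefm were highest in control 8, where this sum was highest, and Nefh in control 7. Markers of non-neuronal cells were also lower in the Cre somas: fibroblast markers summed to 173 to 364 CPM against 907 to 3656 CPM in controls, and satellite glia markers to 169 to 333 CPM against 472 to 2299.9 CPM. Schwann cell markers overlapped, at 323 to 591 and 463 to 1322 CPM. None of the markers of these 4 lists was called by edgeR (median log2 fold changes -2.02, -2.998, -1.82 and -2.24), and the part of such cells in the values of the members was not tested. Within libraries, Prph to Nefl was 4.86, 9.44, 5.33 and 4.94 in Cre somas and 3.75, 1.26, 1.93 and 1.06 in controls 5 to 8, with no overlap (difference 1.74, exact p = 0.0286, adjusted 0.152). Ina to Nefl was 0.269 to 0.509 in Cre somas and 0.0534 to 0.196 in controls (difference 1.85, exact p = 0.0286, adjusted 0.152). Control 5 was the nearest to the Cre somas in both ratios, and without it the differences were 2.10 and 2.22 (exact p = 0.0571 each, the smallest that 4 against 3 allow).

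**Figure D5:**
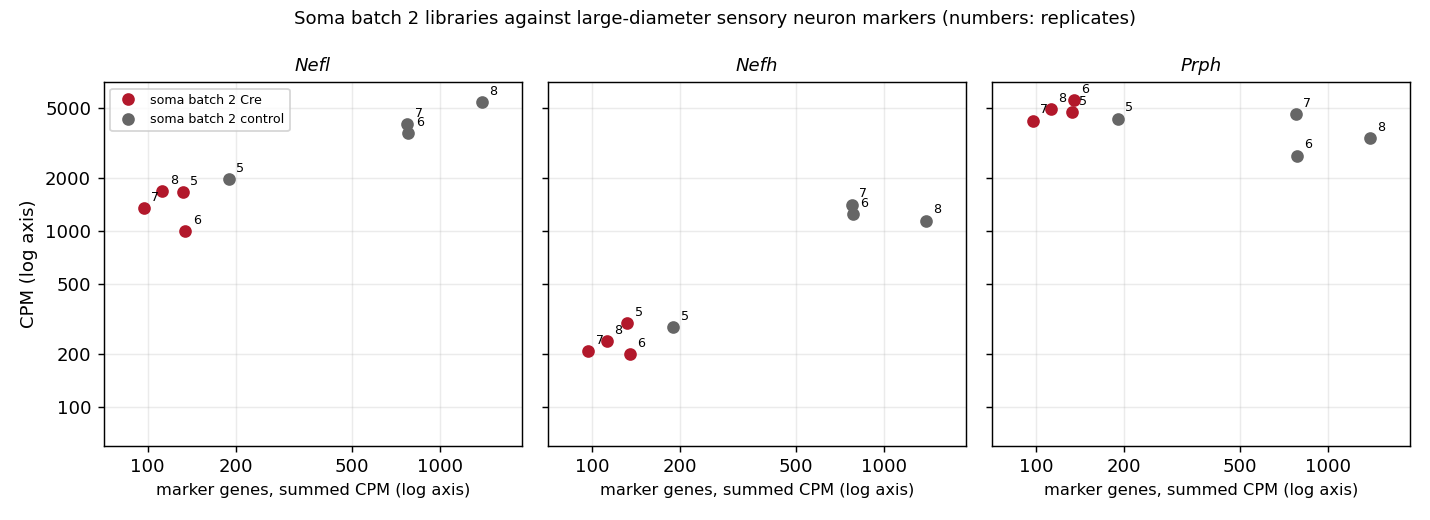
CPM of Nefl, Nefh and Prph (y axis) against the summed CPM of 10 markers of large-diameter sensory neurons (x axis), both logarithmic, in the 4 Cre (red) and 4 control (grey) somas of batch 2, numbered by replicate. Control 5, at a sum of 190.3 CPM, had Nefh at 283 CPM within the Cre range, while controls 6 to 8 had sums of 775 to 1390 CPM and Nefh at 1142 to 1409 CPM.

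In the batch 1 somas none of the 5 genes was called, where 4.42% of 11667 genes were (edgeR, with no member at an unadjusted p under 0.05, while DESeq2 called Nefl, Nefm and Nefh and 16.3% of all genes), and the values depended on control 3. Nefl was at 964, 1548, 1548 and 2236 CPM in Cre somas 1 to 4 and at 2846, 2831, 6880 and 2855 CPM in controls 1, 3, a and b (a and b are the 2 controls whose number the table does not give). Every control lay above every Cre soma, in CPM and after scaling. After scaling, 1.34% of genes were as separate downwards, a share that includes control 3 at its TMM factor of 0.0547 and does not apply to plain CPM. With control 3 the log2 fold change was -3.96 (SE 2.43, edgeR adjusted p 0.424), and the median over all genes -0.45. Without control 3 edgeR called 24.3% of all genes and 1 of the 5 members, Nefl at -1.60 (edgeR adjusted p 0.0162). Prph moved from -2.85 to 0.18, Nefh from -4.14 to -1.21, Nefm from -3.11 to -2.10 and Ina from -0.65 to -0.75 (edgeR adjusted p 0.0582 to 0.847).

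That control also had the lowest Ina of the somas. Ina was at 505, 330.0, 278 and 221 CPM in Cre somas and at 287, 11.4, 839 and 388 CPM in controls 1, 3, a and b, where 11.4 CPM stood on 106 counts (Wilson 95% interval 9.45 to 13.8 CPM). Nefh was at 228 to 675 CPM in Cre somas and at 63.0, 902, 1902 and 520.0 CPM in the controls, an overlap on both sides. Prph to Nefl was 3.04 to 13.3 in Cre somas and 1.42, 3.11, 1.90 and 2.08 in controls, so that control 3 overlapped the Cre soma 4 (difference 1.62, exact p = 0.0571, adjusted 0.229). Without control 3 the difference was 1.82 (exact p = 0.0571, the smallest possible there). In 3 of the 4 settings the ratio of Prph to Nefl was thus higher on average in Cre than in control libraries, and in sciatic nerve it was lower by 0.38 (difference -0.38, exact p = 0.457, where the smallest possible p was 0.0571). Differences between these settings were not tested for the ratio.

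Subtracting the controls from each axon and soma comparison used 15 or 16 libraries of a batch, the Cre libraries of which also enter the comparisons above. In central axons none of the 5 genes differed from its soma beyond control (edgeR, 0% of 15355 genes called, 3133 at an unadjusted p under 0.05, and 134 called higher and 448 lower by DESeq2, none a member). The values were 1.88 for Prph (SE 0.70), 1.19 for Nefl (SE 0.56), 1.16 for Nefm (SE 0.80), 1.13 for Nefh (SE 1.01) and -0.11 for Ina (SE 1.00). Without control 3 of the batch 1 somas they were 1.46, 0.96, 1.30, 0.71 and 0.21, and none was called. Over the 16 fits with 1 library left out they ranged from 1.38 to 5.12 for Prph, 0.96 to 3.94 for Nefl, 0.92 to 2.78 for Nefm and 0.71 to 4.27 for Nefh, each highest without control b of the batch 1 somas. In peripheral axons edgeR also called none of the 5 (0.00636% of 15717 genes called). Nefh had the largest of those values, 2.27 (SE 0.64, edgeR adjusted p 0.293), and DESeq2 called it at 2.36 (DESeq2 adjusted p 0.0311) with 2.18% of all genes. Nefm followed at 2.18 (SE 0.83) and Nefl at 1.59 (SE 0.84), with Prph at -0.12 (SE 0.78) and Ina at -0.34 (SE 0.93). Without control 5 of the batch 2 somas Nefh was at 2.57 (edgeR adjusted p 0.0664), Nefm at 2.46, Nefl at 1.78, Prph at -0.25 and Ina at -0.48, with no call. The soma controls described above enter these differences with the opposite sign.

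The Cre somas of the 2 batches, which come from the same genotype and tissue, were compared as a measure of batch. None of the 5 genes was called, where 9.69% of 14899 genes were. Nefh came nearest, at 228, 467, 328 and 675 CPM in batch 1 and 299, 199, 206 and 235 CPM in batch 2 (difference 0.84 on the log2 scale, SE 0.29, edgeR adjusted p 0.116). DESeq2 called it with 13% of all genes. The other 4 lay between -0.39 (Ina, SE 0.30) and 0.26 (Prph, SE 0.29).

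Genes that belong to the same filament system were read from 2 fixed lists. Of 11 other intermediate filament genes, 9 were tested in central axons against soma, where Gfap, the astrocyte filament, rose by 8.29 (SE 1.27, edgeR adjusted p 0.00165) and Synm, a linker filament, fell by 1.74 (SE 0.37, edgeR adjusted p 0.0106). In peripheral axons 4 of 8 rose and 1 fell, among them nestin (Nes, 5.57), desmin (Des, 4.71) and vimentin (Vim, 2.30), filaments of Schwann, muscle and connective tissue cells. The median of the list was 0.44 in central and 1.12 in peripheral axons, on the log2 scale and beside 0.05 and -0.03 over all genes, whereas the medians of the 5 neuronal members were -0.24 and -1.69.

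Of 16 linkers, kinases and motors that bind, phosphorylate or carry neurofilaments, 1 rose in central axons against soma (13.7% of all genes were called), Macf1, a large linker of the spectraplakin family (2.10, SE 0.41, edgeR adjusted p 0.00688). In peripheral axons 3 fell and 1 rose, where 31.2% of all genes were called. Among those that fell were Cdk5, a kinase of neurofilament tails (-1.51, SE 0.24, edgeR adjusted p 0.000779) and Kif5a, a kinesin that carries neurofilaments (-1.10, SE 0.32, edgeR adjusted p 0.0216). The list medians were -0.41 and -0.40.

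Across all 31 libraries, the genes whose log2 CPM followed each member best were found among 10741 genes with a mean of at least 10 CPM. These correlations share groups, batches and depth, and are given as a description. Nefl was followed best by its neighbour Nefm (Pearson's r = 0.952), part of which can come from their shared stretch, then by Map1b (0.905), a microtubule-associated protein of axons, and Chd5 (0.903). Nefh was followed best by Ank2 (0.842), Map1b (0.826) and Sptbn1 (0.825), which encode an ankyrin, the same microtubule protein and a spectrin. Prph was followed best by Mapk3 (0.958), Rgs4 (0.9499) and Dok4 (0.936), and Ina by Celf4 (0.947), Tmem59l (0.922) and Actl6b (0.911).

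Between members, the 3 neurofilament genes correlated at 0.802 to 0.952, Prph with them at 0.556 to 0.670, and Ina with Prph at 0.372. Without control 3 of the batch 1 somas, Nefm (0.951) remained the first for Nefl and Mapk3 (0.941) for Prph, but Nefh was then followed best by Nefm (0.785). The values between members also depended on that library. Without it the neurofilament genes correlated at 0.686 (Nefl with Nefh) to 0.951, and Prph with them at 0.321 to 0.508. Ina then correlated with Nefl at 0.828, with Nefm at 0.728, with Nefh at 0.476 and with Prph at 0.436.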

How the data were processed

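The deposited values were raw counts per gene for 31 libraries in 2 tables, 1 per batch, as the authors deposited them. Per the labels' protocols, ribosome-bound RNA was purified with an antibody against GFP and amplified as cDNA before library preparation. Per the submitters' processing notes, STAR 2.7.2b and the build mm10 were used, and the counting program, its treatment of strand and of duplicates are not given in the sources used here. Gene identifiers (55536, all matched) were named with GENCODE M21, from which positions (GRCm38) and sequences were read.

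CPM is the count over the library total, and CPM per kilobase divides it by the exonic bases of the gene. Each comparison was fitted in edgeR 4.0.16 (R 4.3.3) over all genes that passed filterByExpr, with TMM scaling and the quasi-likelihood test, and p-values adjusted by Benjamini-Hochberg over all genes tested. An adjusted p under 0.05 was a call. Ratios within libraries were taken after adding 0.5 to each count and tested by exact two-sided permutation (scipy 1.17.1). The alternatives were DESeq2 1.42.0, limma 3.58.1 (voom), other scaling, no filter, all groups of a batch in one fit, the replicate number as a block and leaving out each library. The fit was tested on simulated data with known changes. The 5 genes, the 15 lists (114 genes) and the tests were chosen with earlier results of these data known.

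Named genes were the 5 members, up to 3 called genes of each list with the largest change, and the 3 genes most correlated with each member. A few items that these rules select are not reported here. Total counts were 3.60 to 19.6 M per library, and intervals cover counting error only, since reads without molecular identifiers are not independent molecules. Axon type and batch go together, so axons were compared through the somas of their own batch. The labels name biological replicates but not which share an animal, so p-values measure the spread between these libraries. In the batch 1 somas, 2 controls share a column name and are called a and b.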

Additional observations from a re-analysis of the deposited data

Results flagged for a closer look

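In 63 sets of a group's 4 libraries and one value of the members, 5 had a library far from the other 3, where chance gives about 1 in 20. Nefl reached 6880 CPM in batch 1 soma control a, while the other 3 controls lay at 2831 to 2855 CPM. The log2 ratio of Prph to Nefl was 1.41 in peripheral axon Cre 1 (a ratio of 2.66), below the other 3 nerve libraries of that group, which had ratios of 6.02 to 6.62. The same log2 ratio was 3.24 in batch 2 Cre soma 6 (a ratio of 9.44), above the other 3, which had ratios of 4.86 to 5.33. The log2 ratio of Ina to Nefl was -0.89 in central axon Cre 1, the highest of its group. It was -7.88 in batch 1 soma control 3, the library with the TMM factor of 0.0547, where Ina had 106 counts.

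The difference from soma was unlike in central and peripheral axons for Nefl (1.63 higher on the log2 scale in central axons) and for Ina (2.57 higher), by the test of the difference itself in edgeR (adjusted p 0.0308 and 0.00651).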

How the results depend on the processing

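Across settings other than leaving out a library, 283 log2 fold changes of members kept their direction and their side of the threshold. Another 27 turned direction, 18 gained a call and 7 lost one. The lost calls include Prph in both axons and Ina in peripheral axons relative to the general neuronal markers. With 4 against 4 libraries and 10 tests, a gene alone could not reach an adjusted p under 0.05 on that scale. All 32 ratio results kept their direction and their side of the threshold. They came from adding 5 to each count and from using the length of the longest transcript. A gene length cancels in a difference between groups, so that setting could not turn a ratio result. The number of members called moved in 10 of 61 cases, and the cause was not tested. DESeq2 called 3 in the batch 1 somas against control, 4 in the batch 2 somas against control, 1 in peripheral axons beyond control and 1 between the soma batches, where edgeR called 0 in each. Scaling by library size alone called 1 (batch 1 somas) and 2 (batch 2 somas), no filter called 2 in the batch 2 somas, and fitting all 4 groups of a batch called 2 in the batch 1 somas, 0 in place of 1 in central axons against soma and 2 in place of 4 in peripheral axons against soma.

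Values that turned direction, none of them called, were these. In central axons against soma, Nefl, Nefm and Nefh were at 0.21, 0.34 and 0.020 by library size, Nefl and Nefm at 0.11 and 0.25 with all 4 groups, Nefm at 0.021 with voom, and Nefl, Nefm and Nefh at 0.76, 1.00 and 0.56 relative to neuronal markers. In peripheral axons against soma, Nefl, Nefm and Nefh were at 0.079, 0.092 and 1.52 relative to those markers. In the batch 1 somas Prph was at 0.27 by library size. In central axons beyond control Ina was at 0.20 with DESeq2, 0.20 with RLE scaling and 0.017 with no filter. In peripheral axons beyond control Prph was at 0.16 and Ina at 0.65 with voom, and Prph at 0.12 by library size. Between the axons, Prph was at -0.11 with DESeq2 and -0.11 with RLE scaling, and Nefh at 0.095 with voom, 0.11 by library size and 0.065 with no filter. Between the soma batches Nefm was at -0.0037 with voom.

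Leaving out 1 library at a time, the members called ranged from 0 to 1 in the batch 1 somas, 0 to 4 in the batch 2 somas, 0 to 1 in central axons against soma, 3 to 4 in peripheral axons against soma, 1 to 3 between the axons and 0 to 1 between the soma batches. Directions turned within these ranges: Nefm -0.12 to 1.05 and Ina -0.024 to 2.21 in peripheral axons against control, Prph -3.17 to 0.18 in the batch 1 somas, Nefm -0.35 to 0.41 in central axons against soma, Ina -0.55 to 0.40 in central and Prph -0.59 to 0.80 and Ina -0.89 to 1.36 in peripheral axons beyond control. Between the axons they were Nefh -0.28 to 0.27 and Prph -0.56 to 0.46, and between the soma batches Nefl -0.0094 to 0.29 and Nefm -0.34 to 0.39. Among log2 ratios to Nefl, they were Nefm -0.11 to 0.18 and Prph -0.33 to 0.10 in peripheral axons against soma, and Ina -0.13 to 0.35 and -0.30 to 0.35 in central and peripheral axons against control.

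The labels do not say that libraries with the same replicate number share an animal. Deviations of same-numbered libraries from their group mean correlated at -0.0086 to 0.197 in central axons and somas (mean 0.114). Over the other comparisons they correlated at -0.133 to 0.205. Not every pair was over 0.1, so the numbers were not taken as pairs. The mean for other numbers, -0.038 in central axons and somas, follows from centring each group and is no separate evidence. With the replicate block, Prph in central axons against soma was at -2.10 (edgeR adjusted p 0.00529), Nefm there at 0.032 and Ina in the batch 1 somas at 0.42, and the number of members called did not move in the 5 comparisons fitted that way. Peripheral axons and somas share no replicate number.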
